A study of Homo sapiens with 8 samples.

Results

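The miR-34 family of microRNAs (miRNAs) was followed in small RNA sequencing of 786O cells, an established human cell line from a clear cell renal cell carcinoma (ccRCC). The family was defined by name as both arms of miR-34a, miR-34b and miR-34c, which gave 6 mature miRNAs, namely hsa-miR-34a-5p, hsa-miR-34a-3p, hsa-miR-34b-5p, hsa-miR-34b-3p, hsa-miR-34c-5p and hsa-miR-34c-3p (written below without the species prefix). Of these, 5 were among the 3112 miRNAs of the count table, and miR-34b-5p was not analysed here. Cells that received a negative control plasmid (NC, n = 4) were compared with cells that received a plasmid for a short hairpin RNA against the circular RNA circSOD2 (circSOD2-sh, n = 4). According to the sample labels, both groups were transfected with a lipid reagent and RNA was taken 48 h later, while the study's methods describe lentiviral knockdown with puromycin selection. All libraries came from this one cell line, so the p-values measure the spread between these 8 samples, which may be technical. The shRNA carried by the samples is not named, and circSOD2 itself is not measured by mature miRNA counts and was not analysed here. The sequencing had been done to look for miRNAs that respond to loss of circSOD2, and the comparison below asks which members of the miR-34 family differed.

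MiRNAs guide Argonaute proteins to messenger RNAs that pair with the miRNA seed, the bases 2 to 8 from its 5′ end, and the paired messages are repressed. The miR-34 genes are direct transcriptional targets of the tumor suppressor p53, and their products repress genes of the cell cycle and of survival such as CDK4, CDK6, MET and BCL2. MIR34A is transcribed on its own and is active in many tissues, whereas MIR34B and MIR34C share 1 primary transcript and are known for high expression in multiciliated cells and testis.

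The mature sequences that decide which miRNAs share targets are shown first, from RefSeq (GRCh38.p14), with the seed in capitals. Mature sequences were found for 5 of the 6 members, and miR-34c-5p is given by name only. MiR-34a-5p lies on chr1:9151735-9151756 (minus strand), within MIR34AHG, the non-coding host gene of MIR34A.
miR-34a-5p: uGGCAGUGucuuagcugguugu
miR-449a: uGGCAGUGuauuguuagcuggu
miR-449b-5p: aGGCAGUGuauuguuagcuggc
miR-34b-5p: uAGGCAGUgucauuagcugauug
miR-449c-5p: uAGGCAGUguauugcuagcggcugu
miR-2682-5p: cAGGCAGUgacuguucagacguc
The first 3 of these carried the same seed, and the other 3 shared a seed that is offset by 1 base. Outside the seed the sequences differed, and miR-34a-5p and miR-449a were equal at 15 of 22 positions.

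The opposite arms have other seeds and are shown because their reads tell from which hairpin a signal came.
miR-34a-3p: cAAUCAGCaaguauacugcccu
miR-34b-3p: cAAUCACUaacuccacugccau
miR-34c-3p: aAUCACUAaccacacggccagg
MiR-34b-3p and miR-34c-3p were equal at 17 of 21 aligned positions. Their hairpins lie on chr11:111512938-111513021 (MIR34B) and chr11:111513439-111513515 (MIR34C), both on the plus strand, 418 bases apart and within the annotated genes BTG4 and MIR34BHG. In the 110-base MIR34A hairpin, on chr1:9151668-9151777 (minus strand), the 5p and then the 3p arm are in capitals.
MIR34A: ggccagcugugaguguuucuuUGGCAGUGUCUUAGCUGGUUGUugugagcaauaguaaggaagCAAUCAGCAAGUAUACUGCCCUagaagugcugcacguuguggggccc

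Total counts ranged from 6386872 to 9245044 for NC and from 3743860 to 4208276 for circSOD2-sh. Predicted miRNAs, numbered by the authors, took 58.1% to 63.8% of an NC library and 3.54% to 4.93% of a circSOD2-sh library, so values were scaled with TMM factors and are given as normalized CPM, the counts scaled to a common library size. A floor of 3 counts corresponded to 0.460 to 0.674 normalized CPM. A pair of libraries stood apart from their groups. In circSOD2-sh replicate 2, summed markers of neural tissue reached 5269 normalized CPM, while replicates 1, 3 and 4 had 476 to 494. In NC replicate 4, summed stromal markers (miR-143-3p and miR-145-5p) reached 537 normalized CPM, while replicates 1 to 3 had 7.08 to 8.35. Markers of kidney tubule, the tissue of the labels, summed to 4141 to 5059 normalized CPM among NC libraries and to 3597 to 3966 among circSOD2-sh libraries. Most of this was miR-200b-3p, at 3770 to 4451 in NC and 3302 to 3661 in circSOD2-sh, while miR-204-5p reached at most 0.898 in NC. Likewise, miR-128-3p made up most of the neural sum in circSOD2-sh replicates 1, 3 and 4, at 437 to 458 normalized CPM. Values without these libraries are given beside the results below.

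MiR-34a-5p, the guide strand of MIR34A and the main p53-induced member, was lower in circSOD2-sh. Its counts were 116, 93, 81 and 87 in NC replicates 1 to 4 and 10, 31, 12 and 16 in circSOD2-sh replicates 1 to 4. After normalization these were 17.8, 14.3, 13.8 and 19.5 normalized CPM in NC and 1.70, 5.47, 2.41 and 2.84 normalized CPM in circSOD2-sh. The lowest NC library lay above the highest circSOD2-sh library, and circSOD2-sh replicate 2 was the highest of its group. The means were 16.4 ± 2.76 (SD, n = 4) and 3.10 ± 1.65 (SD, n = 4) normalized CPM.

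In the fit across all 895 miRNAs that passed the low-count filter, miR-34a-5p fell by 2.38 on the log2 scale (SE 0.32), or 5.22-fold, with an adjusted p of 8.93e-05 (edgeR quasi-likelihood test, Benjamini-Hochberg adjustment). The exact two-sided permutation test on this miRNA alone gave p = 0.0286, the smallest value that 4 against 4 samples allow. Many miRNAs differed in this comparison. At an adjusted p under 0.05, 65.7% of the miRNAs tested differed, and the groups did not overlap for 60.3%. By direction, 32.4% of the miRNAs tested were lower and 33.3% were higher in circSOD2-sh, and 31.8% were lower with no overlap of the groups. In counts these were 290 lower and 298 higher, which became 158 and 613 when libraries were scaled to their totals and 160 and 570 with upper-quartile factors. A lower call and separate groups were thus common, while the size of the change placed miR-34a-5p near the bottom of the order: 3 of the 463 known miRNAs tested had a lower log2 fold change. Over all 895, predicted miRNAs included, 144 did.

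**Figure D1:**
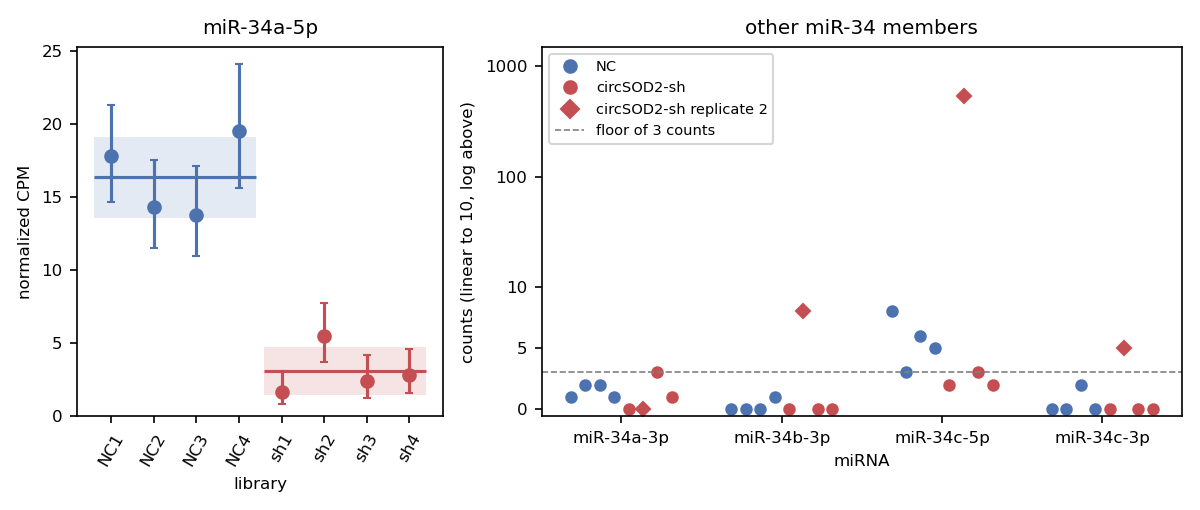
Levels of the miR-34 family by library. Left, normalized CPM of miR-34a-5p (points, with 95% Poisson intervals for counting error), with lines for the group means and bands for 1 SD: NC libraries sit between 13.8 and 19.5 and circSOD2-sh libraries between 1.70 and 5.47. Right, raw counts of the other 4 members in the table, in the order NC1 to NC4 and sh1 to sh4, on an axis that is linear up to 10 and logarithmic above: circSOD2-sh replicate 2 (diamond) stands at 543 counts for miR-34c-5p, and the other values are at most 8.

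The fall of miR-34a-5p did not rest on a single library. Leaving out each of the 8 libraries in turn gave log2 fold changes from -2.91 to -2.30, and without both circSOD2-sh replicate 2 and NC replicate 4 it was -2.82. Without circSOD2-sh replicate 2 the circSOD2-sh mean was 2.32 ± 0.578 (SD, n = 3) normalized CPM. Replicate 2 held 2.37 times the pooled level of the other 3 circSOD2-sh libraries (95% interval for counting error 1.43 to 3.92). A pooled level, here and below, is the summed counts over the summed scaled library size, an average and not a sum of levels. With scaling to library totals the log2 fold change of miR-34a-5p was -1.43, but the median of all miRNAs tested then stood at 0.96, against -0.0022 with TMM. Relative to that median, miR-34a-5p fell by 2.39 with library totals and by 2.38 with TMM. A change of scale alone shifts all miRNAs almost equally, so this likeness is not a separate check. With limma on the deposited CPM plus 1 and plus 0.1, the difference from the median was -1.52 and -2.08. Ordered by level among known miRNAs, miR-34a-5p ranked between 227 and 242 in the NC libraries and between 386 and 449 in the circSOD2-sh libraries.

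**Figure D2:**
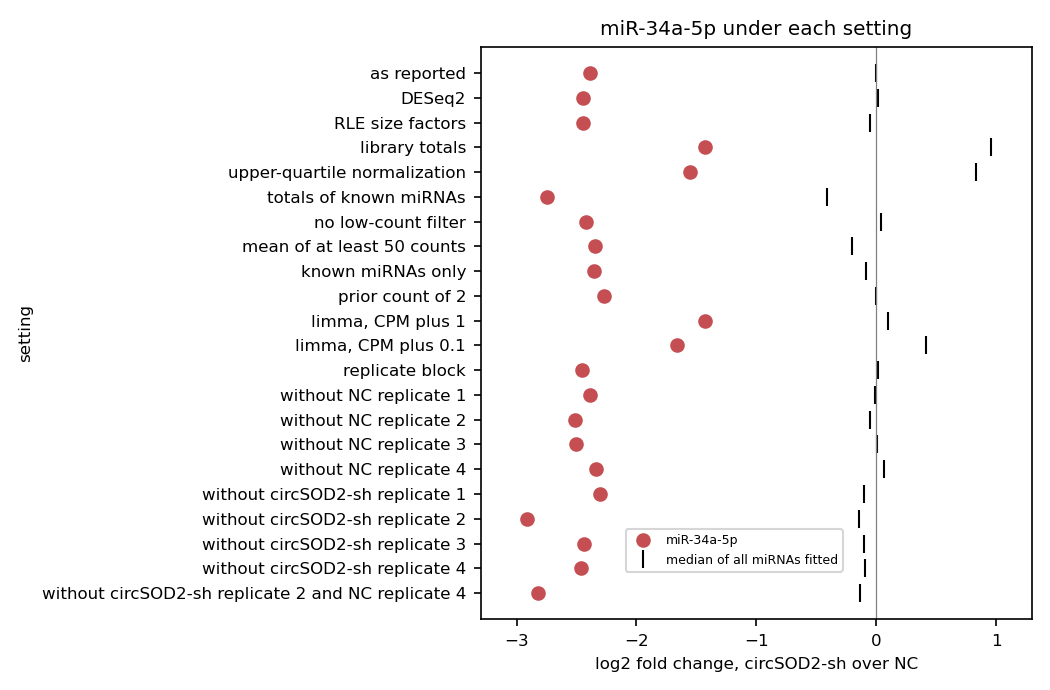
Log2 fold change of miR-34a-5p, circSOD2-sh over NC (horizontal axis), under the reported fit and 21 alternatives (vertical axis), with the median of all miRNAs in the same fit as a vertical tick. The points lie between -2.91 and -1.43, all left of the tick of their setting.

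The opposite strand, miR-34a-3p, is the passenger arm that is usually degraded. It had 1, 2, 2 and 1 counts in NC and 0, 0, 3 and 1 counts in circSOD2-sh. No library was above the floor of 3 counts, and no difference was detectable at this depth. Of all reads of the hairpin, the 5p arm held 377 of 383 in NC (98.4%, exact 95% interval 96.6 to 99.4) and 69 of 73 in circSOD2-sh (94.5%, 86.6 to 98.5). Intervals here and elsewhere cover counting error only. With 0.5 normalized CPM added to each arm, the mean log2 ratio of 5p over 3p was 4.47 ± 0.38 (SD, n = 4) for NC and 2.35 ± 0.91 (SD, n = 4) for circSOD2-sh, with the 3p arm at or below the floor in every library. Neither this hairpin nor that of miR-34c had both arms past the filter, so the ratios were not tested.

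MiR-34c-5p, the guide strand of MIR34C, was close to the floor in all libraries but 1. It had 8, 3, 6 and 5 counts in NC and 2, 543, 3 and 2 counts in circSOD2-sh. These correspond to 1.23, 0.461, 1.02 and 1.12 normalized CPM for NC and to 0.340, 95.8, 0.601 and 0.355 normalized CPM in circSOD2-sh. CircSOD2-sh replicate 2 held 226 times the pooled level of the other 3 circSOD2-sh libraries (95% counting interval 109 to 564). MiR-34c-5p thus ranked 148 among known miRNAs in that library, 597 to 678 in the other circSOD2-sh libraries and 467 to 606 in NC.

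Because the high value belongs to 1 library, the group mean of miR-34c-5p in circSOD2-sh, 24.3 ± 47.7 (SD, n = 4) normalized CPM, does not describe the group. Without replicate 2 it was 0.432 ± 0.147 (SD, n = 3), against 0.958 ± 0.341 (SD, n = 4) in NC. The pooled level of NC was then 2.22 times that of the 3 circSOD2-sh libraries. Its 95% counting interval of 0.917 to 6.16 includes equal levels. MiR-34c-5p did not pass the low-count filter and has no test in the main fit.

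The 3p arms of the MIR34B and MIR34C cluster were seen in the same library. MiR-34b-3p had 0, 0, 0 and 1 counts in NC and 0, 8, 0 and 0 counts in circSOD2-sh. MiR-34c-3p had 0, 0, 2 and 0 counts in NC and 0, 5, 0 and 0 counts in circSOD2-sh. Taken against a floor of 3 counts per library, circSOD2-sh replicate 2 was at least 2.35-fold higher for miR-34b-3p and at least 1.47-fold higher for miR-34c-3p than the other circSOD2-sh libraries. All measured arms of the cluster therefore had their highest value in circSOD2-sh replicate 2. The split of the miR-34c arms in that library was 543 counts of miR-34c-5p and 5 of miR-34c-3p.

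Other miRNAs were high in this library too. Among the 265 known miRNAs with at least 100 counts in circSOD2-sh replicate 2, 17 were over 10-fold above the highest of the other circSOD2-sh libraries, with 3 counts as the floor of the comparison, and miR-34c-5p was 1 of these. MiR-124-3p, a miRNA of neurons, was 1069-fold above it, with 18220 counts against at most 15. MiR-127-3p, of the imprinted DLK1-DIO3 locus, was 133-fold above it, with 5296 counts against at most 35. Of the 17, 4 were on the neural list, 1 on the stromal list (miR-143-3p) and 1 on the kidney tubule list (miR-204-5p). MiR-9-5p and miR-9-3p, of neural progenitors and neurons, had 30.7 and 40.7 times the pooled level of the other 3 circSOD2-sh libraries. Of the 6 neural markers matched by name with at least 100 counts there, miR-128-3p and miR-129-5p were not over 10-fold. A further marker, miR-137, was listed as miR-137-3p, did not match by name and is not in the neural counts or sums. It was not over 10-fold either, with 71.8 normalized CPM in circSOD2-sh replicate 2 against at most 46.5 in the other circSOD2-sh libraries. By contrast, the summed level of miR-449a, miR-449b-5p and miR-449c-5p, the markers used for multiciliated cells and testis, was 8.62 to 10.5 normalized CPM in the 4 circSOD2-sh libraries and 13.7 to 16.4 in NC. The part of these markers in the level of miR-34c-5p was not tested.

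**Figure D3:**
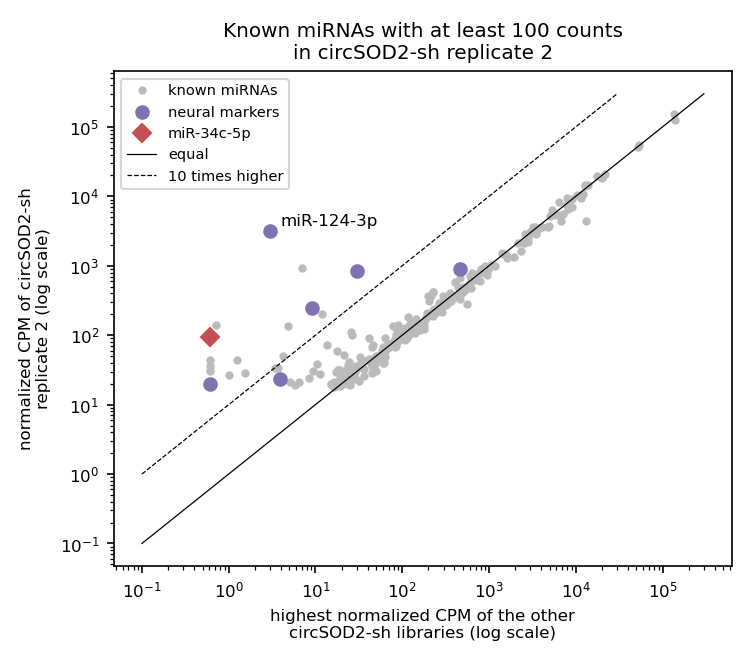
Known miRNAs with at least 100 counts in circSOD2-sh replicate 2. Each point sets the normalized CPM in that library (vertical, log scale) against the highest of the other 3 circSOD2-sh libraries (horizontal, log scale, with levels up to 3 counts drawn at that floor), with lines for equal levels and for 10 times higher. Most points lie on the line of equality, and miR-34c-5p (diamond) is 1 of 17 above the 10-fold line, of which 4 are neural markers. Below it lie 2 further marked neural markers, and also miR-137, which is drawn as an ordinary known miRNA.

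The makeup of the family differed between libraries accordingly. Summed over its members, the family had 125, 98, 91 and 94 counts in NC and 12, 587, 18 and 19 counts in circSOD2-sh. MiR-34a-5p took 89.0% to 94.9% of these in NC and 66.7% to 84.2% in circSOD2-sh replicates 1, 3 and 4. In circSOD2-sh replicate 2 it took 5.28%, and miR-34c-5p took 92.5%. Adapter ligation favors some miRNAs over others, so these are shares of reads and not of molecules.

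Targets that depend on the seed alone could also be bound by the 4 other miRNAs with a miR-34 seed. Of these, 3 passed the filter, 2 were lower and 0 were higher in circSOD2-sh, beside 32.4% lower and 33.3% higher among all miRNAs tested. Their median log2 fold change was -0.51, against -0.11 over all known miRNAs tested. MiR-449c-5p, of the MIR449 cluster known from multiciliated cells, had 12.1, 10.9, 13.5 and 12.1 normalized CPM in NC and 7.47, 7.06, 7.42 and 8.53 in circSOD2-sh. It fell by 0.67 on the log2 scale (SE 0.14, adjusted p = 0.00211, edgeR). MiR-2682-5p had 44.9, 44.6, 41.4 and 40.4 normalized CPM in NC and 33.1, 35.5, 34.3 and 30.2 in circSOD2-sh. It fell by 0.36 (SE 0.11, adjusted p = 0.0148, edgeR). Neither miRNA had overlapping groups, as was so for 60.3% of all miRNAs tested. Without circSOD2-sh replicate 2 and NC replicate 4 the log2 fold changes were -0.74 and -0.53. Both changes depended on the scaling: with library totals the log2 fold changes were 0.30 and 0.60, since the median of all miRNAs rose to 0.96.

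The relatives with exactly the seed of miR-34a-5p were low. MiR-449a had 2.42 ± 1.06 (SD, n = 4) normalized CPM in NC against 1.65 ± 0.339 (SD, n = 4) in circSOD2-sh, with a log2 fold change of -0.51 (SE 0.36) that did not pass the test (adjusted p = 0.234, edgeR). Without NC replicate 3, the lowest NC library at 6 counts, it was -0.81 with an adjusted p of 0.0280. MiR-449b-5p had at most 3 counts in any library. Together, miR-34a-5p, miR-449a and miR-449b-5p summed to 19.0 ± 3.92 (SD, n = 4) normalized CPM in NC against 4.93 ± 1.73 (SD, n = 4) in circSOD2-sh, and 4.10 ± 0.619 (SD, n = 3) without replicate 2. This sum holds only miRNAs whose sequence is printed above, so miR-34c-5p is not in it. With miR-34c-5p of the same family added, the sums were 21.6, 17.5, 15.8 and 24.9 normalized CPM in NC and 4.25, 103, 4.21 and 5.15 in circSOD2-sh. CircSOD2-sh replicate 2 was then the highest of all 8 libraries, and the other 3 circSOD2-sh libraries stayed below every NC library. MiR-34a-5p made up 78.4% to 87.1% of this larger sum in NC, 5.30% in circSOD2-sh replicate 2 and 40.0% to 57.1% in the other circSOD2-sh libraries. MiR-449c-5p and miR-2682-5p, with the offset seed, summed to 55.0 ± 1.86 and 40.9 ± 1.63 (SD, n = 4 each) normalized CPM in NC and circSOD2-sh.

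**Figure D4:**
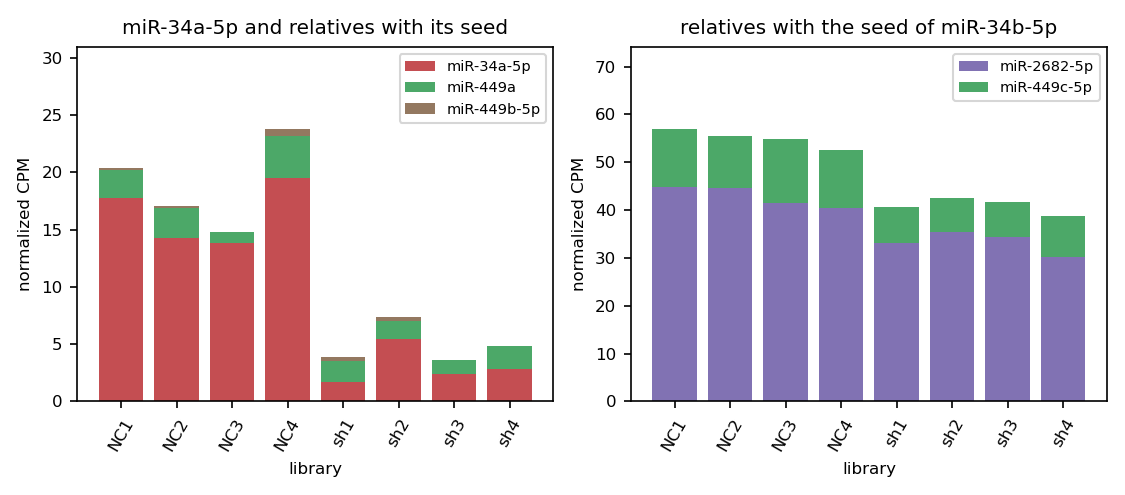
Stacked bars of normalized CPM per library for miR-34a-5p with the relatives of its seed (left) and for the relatives with the offset seed of miR-34b-5p (right). MiR-34c-5p is not drawn, and with its 95.8 normalized CPM the left bar of circSOD2-sh replicate 2 would reach 103, above all others. As drawn, the left bars stand at 14.8 to 23.8 for NC and 3.61 to 7.41 for circSOD2-sh, and the right bars at 52.5 to 57.0 and 38.7 to 42.5.

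Other miRNAs that have been tied to p53, by transcription, by processing or by acting on the pathway, were taken as a list of 14. Of these, 11 passed the filter, 6 were lower and 2 were higher in circSOD2-sh, and the median log2 fold change was -0.63, against -0.11 over all known miRNAs tested. Among all miRNAs tested, 32.4% were lower and 33.3% higher. The direction of the list turned with the scaling: 6 were higher and 1 lower with library totals. With upper-quartile factors and with limma on the deposited CPM, 3 were higher and 1 lower. The balance over all miRNAs moved too. Of the 895, 613 were higher and 158 lower with library totals, and 570 and 160 with upper-quartile factors. With limma on CPM plus 1 and plus 0.1, run without the low-count filter, 710 and 723 of all miRNAs were higher, and 195 and 196 lower. Of the 14, 5 are also on the kidney tubule or stromal marker lists.

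The members of this list with at least 100 normalized CPM changed less than miR-34a-5p. MiR-16-5p, which represses cyclins and BCL2 and whose processing p53 promotes, had 8257 normalized CPM in NC and 5507 in circSOD2-sh on average and fell by 0.58 on the log2 scale (SE 0.08, adjusted p = 0.000157, edgeR). MiR-15a-5p, of the DLEU2 locus, fell by 0.63 (SE 0.11, adjusted p = 0.000904). MiR-22-3p, which represses the p53 target CDKN1A, fell by 0.54 (SE 0.06, adjusted p = 4.06e-05). Without circSOD2-sh replicate 2 and NC replicate 4 the log2 fold changes of these miRNAs were -0.78, -0.85 and -0.68.

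MiR-192-5p, a p53-induced miRNA of kidney and gut, fell by 0.87 (SE 0.32, adjusted p = 0.0350, edgeR), with 952 normalized CPM in NC replicate 4 and 334 to 360 in NC replicates 1 to 3. Without NC replicate 4 it fell by 0.40 (adjusted p = 0.00337). With the replicate number as a block it was -0.70 (adjusted p = 0.0602), and with known miRNAs alone it was -0.83 (adjusted p = 0.0749). The direction of these 4 miRNAs turned with library totals, where the log2 fold changes were 0.38 for miR-16-5p, 0.34 for miR-15a-5p, 0.42 for miR-22-3p and 0.11 for miR-192-5p.

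In the opposite direction, miR-23b-3p was 616 normalized CPM in circSOD2-sh and 308 in NC on average and rose by 1.00 (SE 0.11, adjusted p = 1.54e-05, edgeR), and by 0.88 without circSOD2-sh replicate 2 and NC replicate 4. MiR-107, a p53-responsive miRNA within PANK1, rose by 0.41 (SE 0.12, adjusted p = 0.0104). That call was lost, with adjusted p between 0.0557 and 0.0825, when any of NC replicates 2 and 4 or circSOD2-sh replicates 1 to 4 was left out. With totals of known miRNAs as the scale, miR-107 was at 0.07 (adjusted p = 0.636).

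The remaining 2 lower miRNAs were below 100 normalized CPM and are named after their values were seen. MiR-141-3p and miR-200c-3p, which repress ZEB1 and ZEB2 in epithelial cells, come from 1 transcript. MiR-141-3p had 11.9 normalized CPM in NC and 2.29 in circSOD2-sh on average and fell by 2.35 (SE 0.54, adjusted p = 0.00348, edgeR). MiR-200c-3p fell by 1.50 (SE 0.45, adjusted p = 0.0148, edgeR). That call was lost under 4 of the alternatives, among them library totals, where it was -0.53 (adjusted p = 0.256). Both were highest in NC replicate 4, at 25.4 and 32.6 normalized CPM against at most 8.46 and 12.1 in the other NC libraries. Without that library the log2 fold changes were -1.73 and -0.91, with adjusted p of 0.00177 and 0.0130.

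**Figure D5:**
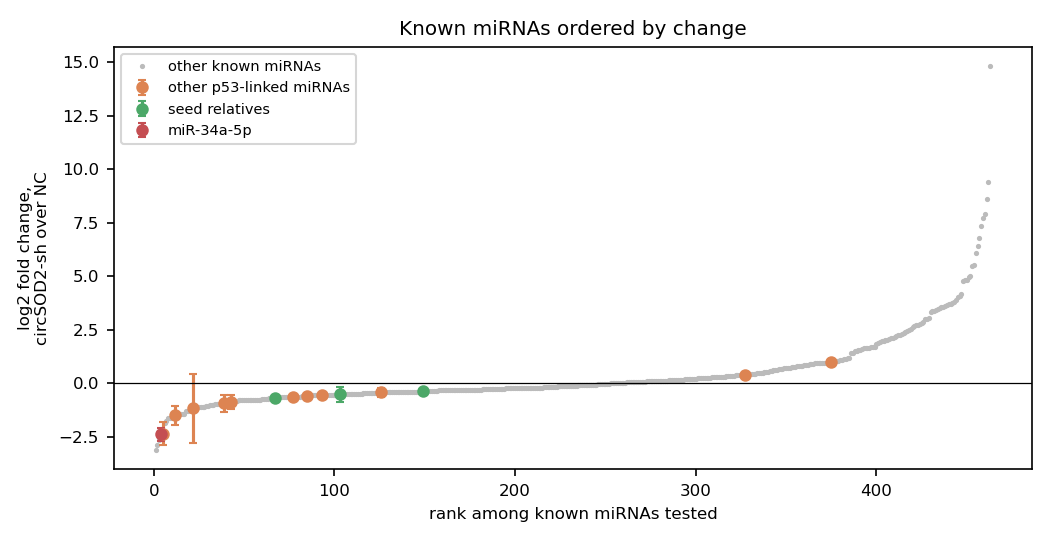
The 463 known miRNAs tested, ordered by log2 fold change, circSOD2-sh over NC (vertical axis), with the rank on the horizontal axis and SE bars on the marked miRNAs. MiR-34a-5p stands at -2.38 near the low end beside miR-141-3p at -2.35, the seed relatives lie between -0.67 and -0.36, and miR-107 and miR-23b-3p are the p53-linked miRNAs above 0.

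The miRNAs whose pattern over the 8 libraries was most like that of miR-34a-5p were found by the root mean square difference of centred log2 levels among 286 known miRNAs with a mean of at least 10 normalized CPM. MiR-19b-1-5p, the passenger strand of a member of the miR-17-92 cluster, was closest at 0.36, with 22.6 normalized CPM in NC and 3.04 in circSOD2-sh. It was followed by miR-497-5p at 0.42, miR-1292-5p at 0.47, miR-625-3p at 0.52 and miR-181a-2-3p at 0.53. Their log2 fold changes lay between -2.89 and -1.44. This order describes likeness in these libraries, with the difference between the groups as its main part.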

How the data were processed

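Small RNA libraries of 4 NC and 4 circSOD2-sh samples of 786O cells were analysed. The submitters' notes list FastQC 0.11.2, Trimmomatic 0.36, Bowtie 1.1.1 and GRCh38. The miRNA annotation, the counting tool and the handling of reads that match several miRNAs are not given in the sources used here. The authors deposited raw counts per mature miRNA, without normalization, and CPM scaled by the authors. A further table with their own comparison was not used. Columns were assigned to samples through their names. Counts of all library pairs within a group differed by more than sampling noise.

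The fit used edgeR 4.0.16 under R 4.3.3 (filterByExpr with a minimum count of 10, TMM, quasi-likelihood test, Benjamini-Hochberg adjustment over 895 miRNAs). Exact permutation tests used log2 of normalized CPM plus 1. Alternatives used DESeq2 1.42.0, limma 3.58.1 (log2 of deposited CPM, with 1 or 0.1 added), other normalizations, filters and prior counts, a replicate block, and libraries left out. The fits were tested on simulated data. These started from the same mean profile in both groups, with a single dispersion. They did not hold the shift in predicted miRNAs between the groups, so the fits were not tested under it. Python 3.11.15 with pandas 2.3.3 and scipy 1.17.1 gave the tables, and matplotlib 3.10.9 the figures. Limits on low counts used 3 counts as the floor and 95% intervals. Sequences and positions are from RefSeq on GRCh38.p14, matched by name for 1298 of 1482 known miRNAs, and were not joined to positions of the authors.

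Members, seed relatives, the p53-linked list and the marker lists were chosen with earlier results of these data known. The miRNAs named are the 6 members, the relatives that share a seed with them, p53-linked miRNAs that were called and had at least 100 normalized CPM in the higher group, and the 5 known miRNAs most like miR-34a-5p. The search for miRNAs raised in circSOD2-sh replicate 2 and the sums with miR-34c-5p were added after the data were seen.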

Additional observations from a re-analysis of the deposited data

Results flagged for a closer look

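Single libraries that stood far from the rest of their group were looked for in 38 groups of 4 values, over the members, the seed relatives and the summed marker lists. By Dixon's criterion at its 95% level, which chance meets in about 1 in 20 groups, 12 were found. This number is a description, since miR-34c-5p and the lists were chosen with earlier results known, the miR-449 relatives also enter a summed list, and in 4 of the 12 groups a single count or a few stood against 0 in the other 3 libraries. In circSOD2-sh replicate 2 there were 6: miR-34c-5p at 95.8, miR-34b-3p at 1.41 and miR-34c-3p at 0.882 normalized CPM, and the summed markers of neural tissue at 5269, of leukocytes at 14.6 and of stroma at 219 normalized CPM. In NC replicate 4 there were 5: miR-34b-3p at 0.225 normalized CPM, which is 1 count, and the summed markers of leukocytes at 17.1, of erythroid cells at 171, of muscle at 47.4 and of stroma at 537 normalized CPM. The last was miR-34c-3p in NC replicate 3 at 0.341 normalized CPM, which is 2 counts. The values of 1 and 2 counts are below the floor of 3 counts. MiR-34a-5p had no such library in either group. Members of the summed lists differed. The leukocyte sum was mostly miR-142-5p at 15.9 normalized CPM in NC replicate 4. In circSOD2-sh replicate 2 it was mostly miR-142-5p at 8.11 and miR-150-5p at 6.35. MiR-223-3p had 0 counts in both libraries, and miR-142-3p had 3 and 1. In NC replicate 4, miR-206 (24.3), miR-133a-3p (10.1) and miR-133b (6.29) were the highest of NC, while miR-1-3p (6.74) was the lowest.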

How the results depend on the processing

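MiR-34a-5p was lower in circSOD2-sh with an adjusted p under 0.05 under all 21 alternatives, with log2 fold changes from -2.91 to -1.43 and adjusted p from 3.83e-13 to 0.00113. Limits are few reads, 10 to 31 of miR-34a-5p per circSOD2-sh library and at most 8 of the other members outside circSOD2-sh replicate 2. Settings without the low-count filter or with a mean of at least 50 counts let miR-34c-5p in through that 1 library. Its log2 fold changes were then 4.61 and 4.69 (edgeR), 1.44 and 1.65 with limma, and 4.59 with DESeq2. These values rest on the 543 counts of circSOD2-sh replicate 2. No p-values are given for them, since miR-34c-5p was chosen with that value known. The planned exact permutation test of arm ratios was not run, because no miR-34 hairpin had both arms past the filter. The difference in the log2 ratio of 5p over 3p was -2.12 for miR-34a, and 0.87 for miR-34c, which became -0.43 without circSOD2-sh replicate 2.

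The counts of calls moved mainly with the scaling and the number of miRNAs tested; the cause was not tested further. Of all miRNAs, 613 were higher and 158 lower with library totals, 570 and 160 with upper-quartile factors, 123 and 123 with known miRNAs only, and 149 were higher with a mean of at least 50 counts. With limma on CPM plus 1 and plus 0.1, 710 and 723 were higher. The known-only, mean-count and limma settings tested sets of miRNAs other than the 895 of the main fit, so their counts are not shares of it. Of the other p53-linked miRNAs, 6 were higher and 1 lower with library totals, and 1 was lower with upper-quartile factors and with both limma fits. Of them, 1 was higher with totals of known miRNAs and without circSOD2-sh replicate 2 and NC replicate 4, and 1 to 2 with single libraries left out. Of the seed relatives, 1 was higher and 0 lower with library totals, upper-quartile factors and both limma fits (miR-2682-5p), and 1 was lower without the low-count filter.

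Log2 fold changes that turned positive are given for library totals, upper-quartile factors, limma on CPM plus 1 and limma on CPM plus 0.1, in this order: 0.60, 0.47, 0.45 and 0.46 for miR-2682-5p, 0.45, 0.33, 0.21 and 0.36 for miR-449a, 0.30, 0.17, 0.13 and 0.15 for miR-449c-5p, 0.11, 0.026, 0.11 and 0.11 for miR-192-5p, 0.34, 0.21, 0.19 and 0.19 for miR-15a-5p, 0.38, 0.25, 0.24 and 0.24 for miR-16-5p, and 0.42, 0.30, 0.28 and 0.28 for miR-22-3p. The median of all miRNAs was then 0.96, 0.83, 0.09 and 0.42.

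Deviations of same-numbered NC and circSOD2-sh libraries from their group means were weakly correlated (0.22, -0.07, 0.09 and -0.15). They were not treated as pairs in the main fit, and whether they were handled together is not known. With the replicate number as a block, miR-34a-5p was at -2.45 (adjusted p = 0.00113, edgeR), and 296 miRNAs were higher and 278 lower. Of the other p53-linked miRNAs 2 and 5 were higher and lower, and of the seed relatives 0 and 2. The differences in arm ratio are plain differences of group means, which such a block cannot change, so it is no check on them.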
